A study of Mus musculus with 6 samples.

Results

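The 10 genes described here encode metallothioneins (Mt1, Mt2 and Mt3), glutathione S-transferases (Gstm1, Gstm5, Gsta4 and Gstp1), glutathione peroxidases (Gpx1 and Gpx4) and the transcription factor Nrf2 (Nfe2l2). They were taken by gene name from a deposited table of read counts and FPKM (fragments scaled by gene length and by the library's mapped total), and they are 10 of its 54532 genes. The libraries are bulk RNA-seq of mouse neurospheres, which are floating spheres grown from dissociated neural progenitors. KO neurospheres came from Ash2l cKO mice (libraries KO 1, KO 2 and KO 3), and WT neurospheres from mice labelled WT (libraries WT 3, WT 6 and WT 7). Both groups were C57BL/6, were taken at E14.5 (embryonic day), and were grown until culture day 6 with B27 (2%), BSA (0.2%) and 20 ng/ml each of EGF and bFGF. In the KO the Cre driver was D6-Cre, whose D6 enhancer is known to act in progenitors of the cortex and hippocampus. Ash2l encodes a core subunit of the COMPASS complexes, enzymes of histone H3 lysine methylation. Cells are labelled as derived from dorsal cortex in one field and as dissected from the lateral ventricle walls in another. The labels do not say whether the libraries came from separate embryos or whether WT mice carried Cre, so the p-values below measure only the spread between these libraries.

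Metallothioneins are small cysteine-rich proteins that bind zinc and copper. Mt1 and Mt2 are made in many tissues, in the brain mainly by astrocytes, and zinc induces them through the factor Mtf1 at short metal response elements. Mt3 is the form enriched in brain. Glutathione S-transferases attach the tripeptide glutathione to reactive electrophiles, glutathione peroxidases use glutathione to reduce peroxides, and Nrf2, which Keap1 marks for degradation in unstressed cells, switches on many such genes at antioxidant response elements.

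Windows around the RefSeq starts are shown first because these elements were searched in them. A window of 300 bases was read for each RefSeq start (GRCm38.p6, 250 bases before it and 50 after it, on the strand of the gene), and 9 of the 10 genes had at least 1 window. Gsta4 had none. Metal response element cores were searched as TGCACNC and TGCGCNC, and antioxidant response element cores as TGACNNNGC and TGAGNNNGC, on both strands. The second pair of patterns can overlap the AP-1 site TGANTCA. In the metallothionein windows the capitals mark metal response element cores, at chr8:94178839-94179138 (plus strand) for Mt1, chr8:94172368-94172667 (plus strand) for Mt2 and chr8:94152357-94152656 (plus strand) for Mt3.
Mt1: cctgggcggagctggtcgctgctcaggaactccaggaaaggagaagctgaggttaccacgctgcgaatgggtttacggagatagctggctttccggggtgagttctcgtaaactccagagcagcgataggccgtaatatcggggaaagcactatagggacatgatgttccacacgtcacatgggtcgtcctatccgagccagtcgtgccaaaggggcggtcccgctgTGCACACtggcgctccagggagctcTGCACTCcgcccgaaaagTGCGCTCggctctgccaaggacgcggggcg
Mt2: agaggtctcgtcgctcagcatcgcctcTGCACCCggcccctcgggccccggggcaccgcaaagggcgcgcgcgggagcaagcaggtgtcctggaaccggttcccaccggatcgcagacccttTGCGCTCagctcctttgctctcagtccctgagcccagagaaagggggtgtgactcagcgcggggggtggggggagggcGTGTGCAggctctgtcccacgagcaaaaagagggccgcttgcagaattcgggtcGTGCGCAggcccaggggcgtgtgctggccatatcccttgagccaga
Mt3: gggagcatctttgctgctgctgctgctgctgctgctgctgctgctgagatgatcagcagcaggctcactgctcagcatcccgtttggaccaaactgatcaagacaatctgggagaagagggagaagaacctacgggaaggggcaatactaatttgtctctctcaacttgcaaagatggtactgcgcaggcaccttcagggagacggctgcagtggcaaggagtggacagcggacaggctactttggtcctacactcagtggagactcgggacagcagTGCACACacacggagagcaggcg
In the transferase windows the capitals mark antioxidant response element cores, at chr3:107895604-107895903 (plus strand) for Gstm5 and chr19:4037863-4038162 (minus strand) for Gstp1.
Gstm5: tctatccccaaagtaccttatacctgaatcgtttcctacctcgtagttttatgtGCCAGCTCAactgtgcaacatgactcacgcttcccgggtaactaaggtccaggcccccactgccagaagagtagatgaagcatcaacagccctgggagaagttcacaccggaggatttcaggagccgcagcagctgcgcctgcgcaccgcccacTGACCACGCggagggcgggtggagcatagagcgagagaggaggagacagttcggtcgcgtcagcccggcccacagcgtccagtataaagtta
Gstp1: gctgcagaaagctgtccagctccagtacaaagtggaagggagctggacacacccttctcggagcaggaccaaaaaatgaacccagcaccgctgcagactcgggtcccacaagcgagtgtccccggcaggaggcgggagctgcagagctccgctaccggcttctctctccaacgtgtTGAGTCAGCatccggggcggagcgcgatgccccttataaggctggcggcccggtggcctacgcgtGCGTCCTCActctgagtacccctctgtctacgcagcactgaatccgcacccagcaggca

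The Mt1 window held 3 metal response cores and the Mt2 window 4, whereas the Mt3 window held 1. Among 32851 RefSeq windows of the same length, 25.7% held at least 1 such core, 1.97% at least 3 and 0.517% at least 4. Gstm5 and Gstp1 each had 2 antioxidant cores, a number reached by 4.68% of all windows, and 27.8% held at least 1. The Mt2, Mt3 and Nfe2l2 windows each held 1 antioxidant core, and the Gstm5 window held 1 metal response core. The Gstm1 windows overlap and share the same 1 metal response core, and they held 0 antioxidant cores. The Gpx1 and Gpx4 windows held neither set of letters. A match here is a stretch of letters and not a measured binding site.

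Several library-wide values bear on what follows. Total counts ran from 16764480 to 21007543 in KO libraries and from 17575641 to 21983659 in WT libraries, so 3 reads correspond to 0.136 to 0.179 CPM (counts scaled to a common library total). Ash2l itself had 86.3, 99.3 and 102 CPM in KO 1, KO 2 and KO 3, against 116, 113 and 109 CPM in WT 3, WT 6 and WT 7, a log2 fold change of -0.24 ± 0.10 (SE) that did not pass the test (adjusted p = 0.119). Which exons were deleted is not given in the sources used here, so reads outside them check nothing. Counts over the gene thus leave the KO label unchecked. The libraries KO 1 and WT 3 stood apart. Markers of mural and meningeal cells summed to 706 CPM in KO 1, against 45.9 and 89.2 CPM in KO 2 and KO 3 and 36.3 to 51.3 CPM in WT libraries. Astrocyte markers summed to 5735 CPM in WT 3, against 12771 and 13924 CPM in WT 6 and WT 7, and neuron markers to 2704 CPM in WT 3, against 1644 and 1441 CPM in WT 6 and WT 7. Results are therefore given with and without these libraries where they differ.

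Of the 10 genes, all were tested, 0 rose and 5 fell in KO neurospheres: Mt1, Mt3, Gstm1, Gstm5 and Gsta4. Across all 16606 tested genes, 15.5% fell and 13.5% rose, 29.0% in all. The median log2 fold change was -1.04 over the 10 genes and 0.00 over all tested genes. At an unadjusted p of 0.05 in the same edgeR test, 6 were lower and 0 higher. The share of all tested genes at that unadjusted p was not counted, here or for the lists below. The shares just given are for adjusted p and are no background for such counts. The KO libraries lay wholly below the WT libraries in the same 5 genes, a pattern seen in 25.2% of tested genes. The other 5, Mt2, Gstp1, Gpx1, Gpx4 and Nfe2l2, did not pass. The count of genes that fell was 3 without KO 1 (background 9.06%), 1 without KO 2 (7.99%), 4 without KO 3 (12.6%), 7 without WT 3 (18.6%), 2 without WT 6 (6.93%) and 2 without WT 7 (7.49%). It was 7 in limma-voom with quality weights (23.6%), 5 in DESeq2 (13.9%), 6 without a filter on low counts (7.53%), and 4 on both log2(FPKM + 1) (14.0%) and log2(FPKM + 0.1) (13.8%). Without both KO 1 and WT 3, a setting chosen after seeing the data, it was 7, with a background of 17.0%. In bulk RNA, fewer cells of a type and less RNA per cell cannot be told apart.

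**Figure D1:**
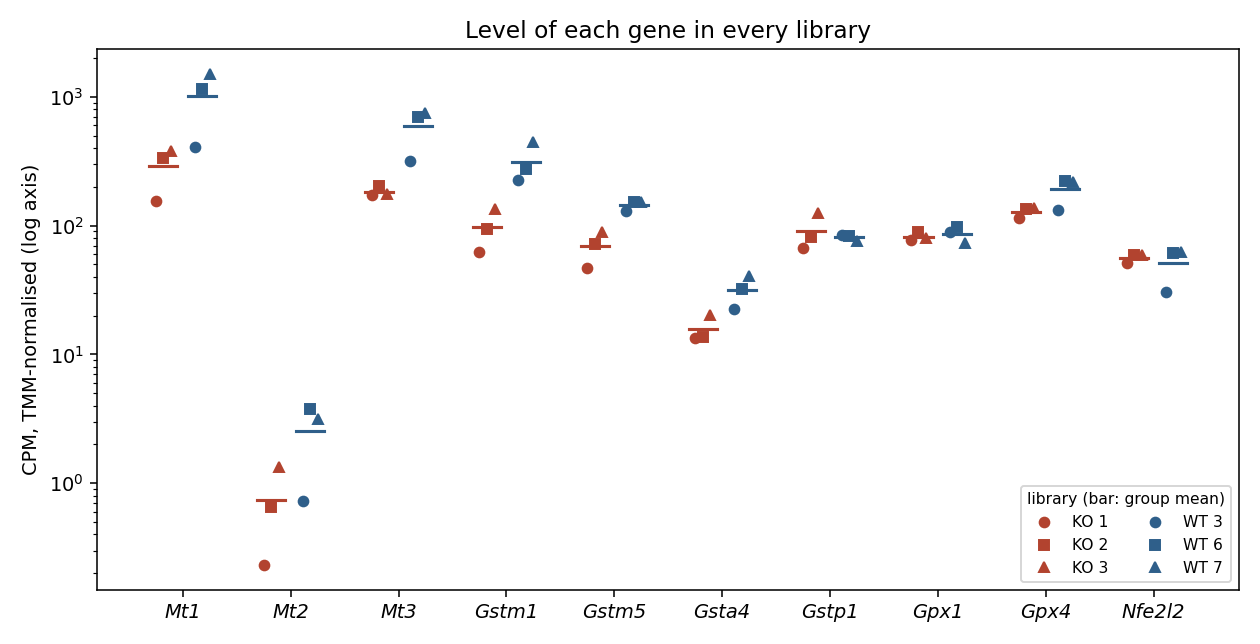
Normalised CPM (log axis) of the 10 genes in each library, with KO libraries in red left of WT libraries in blue and a bar at each group mean. For Mt1, Mt3, Gstm1, Gstm5 and Gsta4 every KO point lies below every WT point, while Gstp1, Gpx1 and Nfe2l2 overlap, as do Mt2 and Gpx4.

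The 3 expressed metallothionein genes lie side by side on chromosome 8, in the order Mt3, Mt2, Mt1 along the plus strand. Mt1 (ENSMUSG00000031765; mm10 chr8:94179082-94180327) encodes a broadly inducible zinc-binding form. It had 154, 334 and 379 CPM in KO 1, KO 2 and KO 3, against 405, 1148 and 1502 CPM in WT 3, WT 6 and WT 7. The groups did not overlap, but KO 3 and WT 3 lay close together. Mt1 fell to 28.4% of the WT level, a log2 fold change of -1.82 ± 0.52 (SE; 95% interval -3.05 to -0.58; adjusted p = 0.0403). This call was lost without KO 1, KO 2, KO 3, WT 6 or WT 7, each in turn, with log2 fold changes of -2.20 to -1.41 and adjusted p-values of 0.00335 to 0.117 over the 6 omissions. It was also lost when log2(FPKM + 1) or log2(FPKM + 0.1) was tested with limma, where adjusted p was 0.0563 and 0.0578.

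Mt3 (ENSMUSG00000031760; chr8:94152607-94154146) is the brain-enriched form, first known as a growth inhibitory factor for neurons. It had 172, 202 and 176 CPM in KO 1, KO 2 and KO 3, against 318, 696 and 755 CPM in WT 3, WT 6 and WT 7. The KO libraries were close to each other, and the WT libraries spread more widely, with WT 3 lowest. Mt3 fell to 31.0% of the WT level, a log2 fold change of -1.69 ± 0.31 (95% interval -2.43 to -0.95; adjusted p = 0.00951). It was the one gene of the 10 whose call held in all 6 omissions of a single library, where the log2 fold change stayed between -1.99 and -1.46.

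Mt2 (ENSMUSG00000031762; chr8:94172664-94173568) is the close relative of Mt1 and usually its companion. It was scarcely read in these libraries, with 4, 12 and 28 reads in KO 1, KO 2 and KO 3, against 13, 75 and 67 reads in WT 3, WT 6 and WT 7. KO 3 lay above WT 3, so the groups overlapped. Its log2 fold change was -1.77 ± 0.75, an estimate close to those of its neighbours, but the 95% interval of -3.55 to 0.00 was wide and the adjusted p was 0.115. It passed without WT 3 (log2 fold change -2.20; adjusted p = 0.0215), without both KO 1 and WT 3 (-1.80; 0.0218) and in limma-voom with quality weights (-2.43; 0.0182), and without KO 3 its estimate was -2.50. In GENCODE M21, 73.5% of the exon bases of Mt2 are shared with Gm45774, an antisense gene, and 156 bases are not shared. Gm45774 had 10, 11 and 20 reads in KO 1, KO 2 and KO 3, against 31, 39 and 57 reads in WT 3, WT 6 and WT 7, and whether strand was used in counting is not stated. Reads of this pair, and the low level of Mt2, are therefore uncertain.

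The 3 genes can be set beside each other within a library, although the reads of Mt2 are uncertain, as given above. Mt1 had 669, 516 and 286 reads for each read of Mt2 in KO 1, KO 2 and KO 3, against 555, 305 and 473 in WT 3, WT 6 and WT 7. The ratio of Mt1 to Mt3 in FPKM was 0.769, 1.42 and 1.85 in KO 1, KO 2 and KO 3, against 1.09, 1.41 and 1.70 in WT 3, WT 6 and WT 7. Both ratios overlapped between the groups and spread within them. Summed over Mt1, Mt2 and Mt3, the level was 326, 537 and 556 CPM in KO libraries, against 724, 1848 and 2260 CPM in WT libraries. The fourth gene of the cluster, Mt4 (chr8:94137197-94139031), which is known from stratified epithelia, had 0 reads in all 6 libraries, a level of at most 0.179 CPM at these depths.

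**Figure D2:**
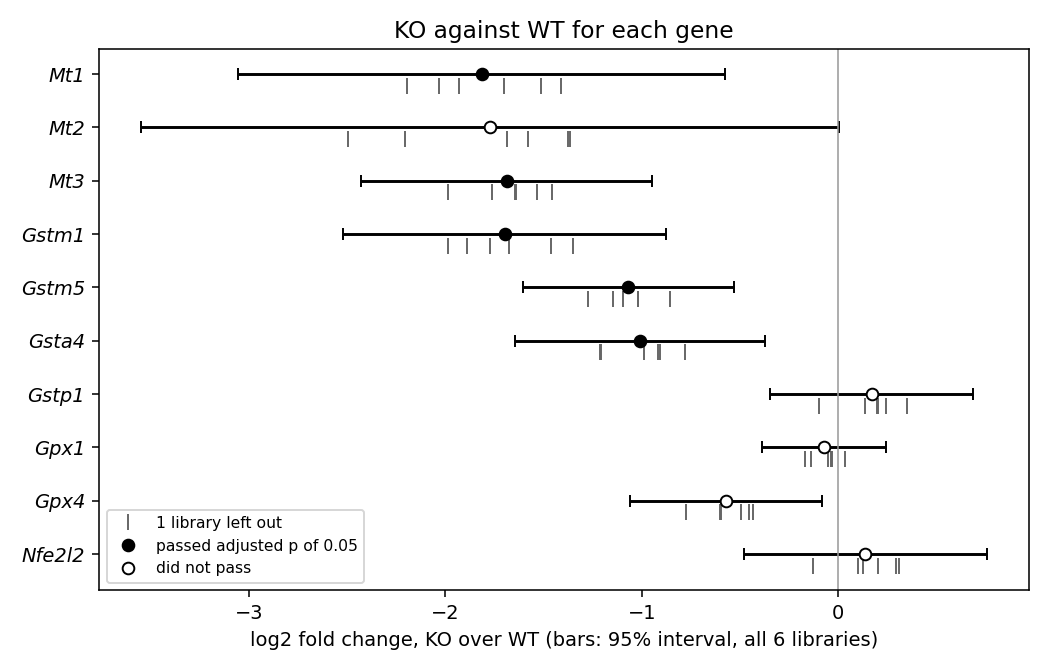
Log2 fold change of each gene, KO over WT, with bars for the 95% interval over all 6 libraries, filled points for genes that passed an adjusted p of 0.05 and ticks for the estimates with 1 library left out. Mt1, Mt3, Gstm1, Gstm5 and Gsta4 lie below 0 with all their ticks, Mt2 has the widest interval, and the ticks of Gstp1, Gpx1 and Nfe2l2 fall on both sides of 0.

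Among the transferases, both mu-class genes and the alpha-class gene fell and the pi-class gene did not pass. Gstm1 (ENSMUSG00000058135; chr3:108012255-108017973, minus strand) encodes a cytosolic mu-class enzyme. It had 62.4, 93.8 and 134 CPM in KO 1, KO 2 and KO 3, against 224, 274 and 445 CPM in WT 3, WT 6 and WT 7. All KO libraries were well below all WT libraries, and KO 1 was the lowest. Gstm1 fell to 30.8% of the WT level, a log2 fold change of -1.70 ± 0.35 (95% interval -2.52 to -0.88; adjusted p = 0.0133). Without KO 2 the call was lost (adjusted p = 0.0562), and the estimate ranged from -1.99 to -1.35 over the 6 omissions.

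Gstm5 (ENSMUSG00000004032; chr3:107895821-107898686, plus strand) lies in the same mu-class cluster. It had 47.0, 71.6 and 89.5 CPM in KO 1, KO 2 and KO 3, against 130, 153 and 154 CPM in WT 3, WT 6 and WT 7. The WT libraries were close together, with WT 3 near the others, and the KO libraries were spread below them. Gstm5 fell to 47.6% of the WT level (log2 fold change -1.07 ± 0.23; 95% interval -1.61 to -0.53; adjusted p = 0.0150), and the call was lost without KO 2, WT 6 or WT 7, where adjusted p reached 0.0560. Of its exon bases, 13.9% are shared with the antisense gene 4933431E20Rik, which also fell (log2 fold change -1.32 ± 0.24; adjusted p = 0.00893). The antisense gene had 719, 903 and 1612 reads in KO 1, KO 2 and KO 3, against 2292, 2469 and 3466 reads in WT 3, WT 6 and WT 7. With strand use not stated, reads in the shared bases cannot be assigned to either gene.

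The ratio of Gstm1 to Gstm5 in FPKM was 1.15, 1.14 and 1.30 in KO 1, KO 2 and KO 3, against 1.49, 1.55 and 2.51 in WT 3, WT 6 and WT 7. The groups did not overlap, with WT 7 apart from the rest. An exact two-sided permutation test of 3 against 3 libraries cannot give a p below 0.1. The other mu-class genes between and beside this pair, which are similar in sequence and could share reads with it, did not pass. Their log2 fold changes were 0.16 ± 0.23 for Gstm7, 0.05 ± 0.38 for Gstm6, 0.92 ± 0.49 for Gstm2 and -0.47 ± 0.39 for Gstm4, and Gstm3 had at most 1 read in any library and was not tested.

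Gsta4 (ENSMUSG00000032348; chr9:78182774-78209349, plus strand) encodes the alpha-class enzyme that conjugates 4-hydroxynonenal and other products of lipid peroxidation. It had 13.5, 13.7 and 20.2 CPM in KO 1, KO 2 and KO 3, against 22.3, 32.3 and 40.9 CPM in WT 3, WT 6 and WT 7. The groups were separated by the narrow gap between KO 3 and WT 3. Gsta4 fell to 49.7% of the WT level (log2 fold change -1.01 ± 0.27; 95% interval -1.65 to -0.37; adjusted p = 0.0314). The call was lost without KO 1, KO 2, WT 6 or WT 7, with adjusted p of up to 0.104 and estimates of -1.21 to -0.78.

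Gstp1 (ENSMUSG00000060803; chr19:4035407-4037921, minus strand) encodes the pi-class enzyme, common in progenitors and tumour cells. It had 67.3, 82.1 and 124 CPM in KO 1, KO 2 and KO 3, against 84.1, 83.1 and 75.9 CPM in WT 3, WT 6 and WT 7. The WT libraries lay inside the range of the KO libraries. The log2 fold change was 0.17 ± 0.22 with a 95% interval of -0.35 to 0.69 and an adjusted p of 0.574, and without KO 3 its sign turned, to -0.10. The copies Gstp2 and Gstp3 had at most 10 and 6 reads in any library and were not tested, and the pseudogene Gstp-ps had a log2 fold change of 0.23 ± 0.26 (adjusted p = 0.528).

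Of the peroxidases, neither Gpx1 nor Gpx4 passed with all 6 libraries. Gpx1 (ENSMUSG00000063856; chr9:108338903-108340343, plus strand) encodes the abundant cytosolic selenoenzyme that reduces hydrogen peroxide. It had 76.9, 89.4 and 79.8 CPM in KO 1, KO 2 and KO 3, against 88.9, 97.3 and 73.0 CPM in WT 3, WT 6 and WT 7. The groups overlapped fully, and the log2 fold change of -0.07 ± 0.13 had the narrowest interval of the 10 genes, -0.39 to 0.24 (adjusted p = 0.694). That interval still holds changes of either sign, and without WT 6 the estimate was 0.033.

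Gpx4 (ENSMUSG00000075706; chr10:80047166-80056439, plus strand) encodes the selenoenzyme that reduces lipid hydroperoxides in membranes and so protects cells from ferroptosis. It had 115, 134 and 136 CPM in KO 1, KO 2 and KO 3, against 132, 222 and 218 CPM in WT 3, WT 6 and WT 7. WT 3 lay among the KO libraries, and the other WT libraries were above them. The log2 fold change was -0.57 ± 0.21 (95% interval -1.06 to -0.08) and missed the threshold at an adjusted p of 0.0779. Gpx4 passed without WT 3 (-0.78; adjusted p = 0.00285), without both KO 1 and WT 3 (-0.70; 0.00507), in limma-voom with quality weights (-0.73; 0.00517) and without a filter on low counts (-0.57; 0.0491). The processed pseudogene Gpx4-ps2, which could take reads from Gpx4, had 258, 375 and 462 reads in KO 1, KO 2 and KO 3, against 424, 715 and 701 reads in WT 3, WT 6 and WT 7. It fell by 0.70 on the log2 scale (adjusted p = 0.0499), a call lost without KO 1, KO 2, KO 3, WT 6 or WT 7.

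Nfe2l2 (ENSMUSG00000015839; chr2:75675513-75704641, minus strand) had 51.2, 59.1 and 58.6 CPM in KO 1, KO 2 and KO 3, against 30.6, 60.9 and 62.0 CPM in WT 3, WT 6 and WT 7. The KO libraries lay just below WT 6 and WT 7, and WT 3 was the low library. The log2 fold change was 0.14 ± 0.26 (95% interval -0.48 to 0.76; adjusted p = 0.710). Its sign turned without WT 3 (-0.13), without both KO 1 and WT 3 (-0.063) and in limma-voom with quality weights (-0.045). These are transcript levels, and Nrf2 is controlled mostly as a protein.

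For levels between genes, FPKM divides by gene length. In KO neurospheres the order of mean FPKM was Mt1 with 236 ± 94.7 (SD, n = 3), Mt3 with 175 ± 15.4, Gstp1 with 122 ± 38.1, Gpx4 with 75.9 ± 6.13, Gstm1 with 66.8 ± 24.0, Gpx1 with 58.0 ± 4.40, Gstm5 with 55.2 ± 16.3, Nfe2l2 with 15.1 ± 1.01, Gsta4 with 12.7 ± 2.93 and Mt2 with 1.26 ± 0.939. In WT neurospheres it was Mt1 with 791 ± 422, Mt3 with 537 ± 204, Gstm1 with 208 ± 72.6, Gstm5 with 111 ± 6.96, Gpx4 with 108 ± 25.8, Gstp1 with 105 ± 8.19, Gpx1 with 58.6 ± 8.73, Gsta4 with 24.5 ± 6.58, Nfe2l2 with 13.1 ± 4.26 and Mt2 with 4.20 ± 2.59. Mt1 headed both orders, and Mt2, whose reads are uncertain as given above, closed both. Mt1 and Mt3 were not separated from each other beyond the spread of the libraries in either group. In KO libraries the neighbours from Gpx4 to Gstm5 overlapped, as did Nfe2l2 and Gsta4. In WT libraries Gstm5, Gpx4 and Gstp1 overlapped. In KO libraries Gstp1 was separated from Gpx4, the next in order, at the lengths used in the table. These were 757 bases for Gstp1 and 1724 bases for Gpx4, whereas Gstp1-201 and Gpx4-201 have 821 and 995 bases in GENCODE M21. The order between genes depends on the lengths used and was not tested over spliced transcripts.

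Mt1 ranked 231, 113 and 112 by FPKM among protein-coding genes in KO 1, KO 2 and KO 3, against 81, 20 and 13 in WT 3, WT 6 and WT 7. Mt3 ranked 168, 169 and 210 in the KO libraries, against 91, 30 and 28 in the WT libraries. Both were thus among the most abundant transcripts of every library. The table counts Mt1 over 1246 bases and Mt3 over 1066 bases, which include retained introns, whereas their spliced transcripts Mt1-201 and Mt3-201 have 549 and 536 bases in GENCODE M21. The FPKM of both is lower than it would be over the spliced transcripts.

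**Figure D3:**
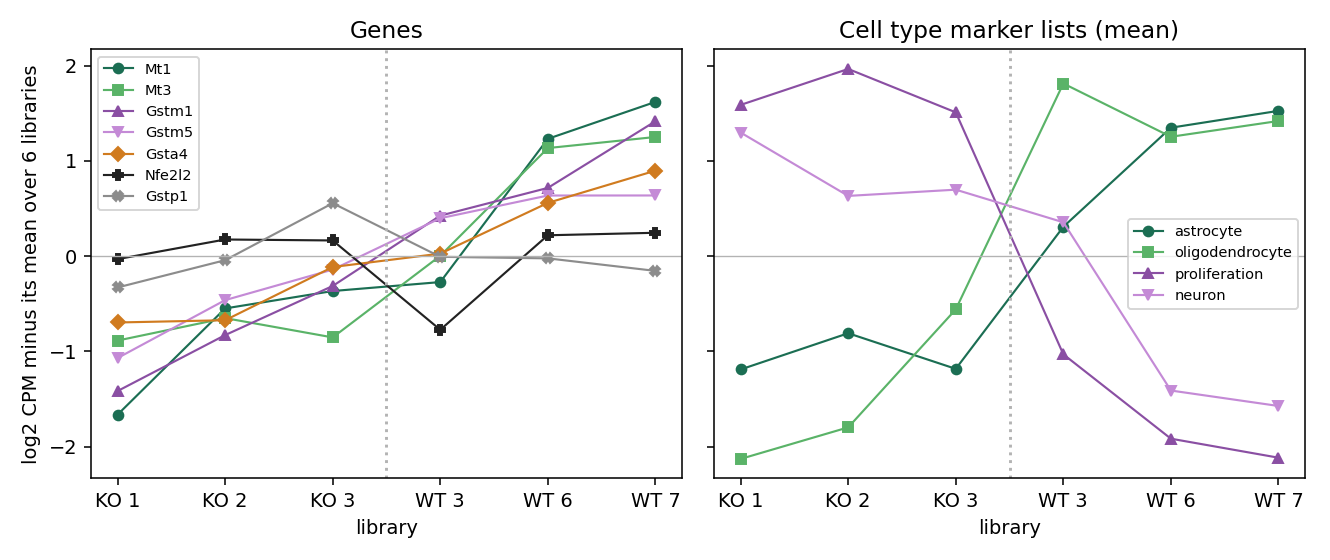
Left, log2 CPM of 7 of the genes minus their mean over the 6 libraries; right, the same averaged over astrocyte, oligodendrocyte, proliferation and neuron markers. Lines link the points of 1 gene or list, and KO libraries are left of the dotted line. Mt1, Mt3, Gstm1, Gstm5 and Gsta4 lie low in KO libraries and high in WT 6 and WT 7, with WT 3 between. So do the astrocyte markers. Oligodendrocyte markers also lie low in KO libraries and high in WT libraries, with WT 3 highest. Proliferation and neuron markers lie higher in KO libraries than in WT libraries.

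Some cell type marker lists also differed between KO and WT libraries, and the sums of others overlapped. Among 18 astrocyte markers, 12 were called lower and 0 higher, and their median was -2.18 on the log2 scale. At an unadjusted p of 0.05, 14 were lower and 1 higher, and DESeq2 and limma-voom each called 1 higher. Their summed level was 3678, 5516 and 3721 CPM in KO 1, KO 2 and KO 3, against 5735, 12771 and 13924 CPM in WT 3, WT 6 and WT 7. Agt, an astrocyte secretory gene, fell by 6.27 and S100b, which encodes a glial calcium-binding protein, by 3.60 on the log2 scale (adjusted p = 0.000735 and 0.00216). Of 12 oligodendrocyte lineage markers 8 fell, and their sum was 1170 to 2158 CPM in KO libraries and 3961 to 4582 CPM in WT libraries. All 12 proliferation markers rose, with sums of 2043 to 2724 CPM in KO libraries and 216 to 390 CPM in WT libraries. Of 12 neuron markers 3 rose, a count that was 0 without KO 1, KO 2, WT 6 or WT 7, 1 without KO 3 and 10 without WT 3. Their sums did not overlap, at 2796 to 4198 CPM in KO libraries and 1441 to 2704 CPM in WT libraries. Of 12 radial glia markers 7 fell and 1 rose, with 4 lower without KO 1, KO 2, WT 6 or WT 7, and the sums overlapped, at 2850 to 3841 CPM in KO libraries and 3020 to 3917 CPM in WT libraries. Of 10 mural and meningeal markers 2 rose, a count that ran from 0 on both log2 FPKM scales to 5 in DESeq2 and 7 without a filter on low counts, with 1 without WT 3, WT 6 or WT 7 and 3 without KO 2 or KO 3. At an unadjusted p of 0.05, 7 were higher. Their sums were 45.9 to 706 CPM in KO libraries and 36.3 to 51.3 CPM in WT libraries. Microglial markers summed to 5.58 to 28.2 CPM in KO libraries and 2.64 to 10.5 CPM in WT libraries, and endothelial markers to 3.45 to 6.63 CPM in KO libraries and 5.26 to 7.48 CPM in WT libraries. Of 8 endothelial markers 3 were tested, 1 fell and 0 rose. On both log2 FPKM scales 0 fell, and 1 was called higher in DESeq2, in limma-voom and without a filter on low counts. Erythroid markers stayed at or below 1.08 CPM in KO libraries and 0.785 CPM in WT libraries, with Hbb-bt at 0. The part that the share of astrocyte lineage, dividing or other cells has in the values of the 10 genes was not tested.

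The rest of metal handling did not fall as a block. Of 29 listed genes of zinc, copper and manganese transport and regulation, 27 were tested, 6 fell and 0 rose, and the median of the 27 was -0.10 (log2). Slc30a10, a manganese exporter of the zinc transporter family, fell most clearly, with 17.9 ± 5.12 CPM in KO and 104 ± 6.30 CPM in WT (SD, n = 3 each; log2 fold change -2.53 ± 0.21; adjusted p = 0.000972). Slc31a2, a copper transporter of intracellular membranes, fell by 1.38, Slc39a13, a zinc transporter, by 0.83, and Ccs, the copper chaperone of superoxide dismutase, by 1.08 on the log2 scale (adjusted p = 0.00398, 0.00704 and 0.00832). These 4 calls held in all 6 omissions. The other 2 genes that fell were Slc30a1, a zinc exporter that Mtf1 is known to induce, by 0.71 (adjusted p = 0.0360), and the zinc importer Slc39a1, by 0.74 (adjusted p = 0.0300), and among the 6 single-library omissions both calls held only without WT 3. They held in all 8 alternatives that kept every library. Mtf1 itself had 32.3 ± 5.03 CPM in KO and 29.8 ± 5.10 CPM in WT, and its log2 fold change of 0.11 ± 0.18 did not pass. Slc30a1, Slc39a1 and Mtf1 were picked out after their values were seen. At an unadjusted p of 0.05, 9 genes of this list were lower and 2 higher, and limma-voom called 9 lower and 3 higher.

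Of the 21 other transferase genes listed, 13 were tested, 5 fell and 2 rose, with a median of -0.47. Mgst1, a membrane-bound enzyme, fell by 1.31 (adjusted p = 0.0149), Gstz1, which acts in tyrosine breakdown, by 0.70 (adjusted p = 0.0161), and Gsto2, an omega-class enzyme, by 1.48 on the log2 scale (adjusted p = 0.0196). The further genes that fell were Gsta3 and Gsto1. Gstcd, which carries a transferase-like domain, rose by 0.99 (adjusted p = 0.00610) and held in all 6 omissions, and Mgst3, the other gene that rose, had an adjusted p of 0.0419. Gsta3, Gsto1 and Mgst3 were named after their values were seen. In this list, 0 genes passed as lower without KO 1 or without WT 6, 1 without WT 7, 2 without KO 2, and 6 without KO 3 or WT 3. The number that rose was 2 without WT 3 and 1 without each of the other libraries in turn. Of the other peroxidases, 3 of 6 were tested: Gpx8, an endoplasmic reticulum form, fell by 0.70 (adjusted p = 0.0267), a call lost without KO 1, KO 2, WT 6 or WT 7 and without both KO 1 and WT 3. Gpx3, the secreted form, had a log2 fold change of 0.62 ± 0.29 and Gpx7 one of 0.21 ± 0.22, and neither passed.

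Genes that make, recycle and move glutathione went both ways. Of 24 listed, 23 were tested, 5 rose and 4 fell, with a median of 0.03. Gsr, which reduces oxidised glutathione, had 69.6 ± 2.22 CPM in KO and 38.9 ± 8.63 CPM in WT, and rose by 0.84 on the log2 scale (adjusted p = 0.0128). Abcc5, an exporter of organic anions, fell by 1.17, Slc1a1, a carrier of glutamate and cysteine, by 1.59, and Oplah, which recycles the 5-oxoproline made from glutathione, by 0.84 on the log2 scale (adjusted p = 0.00162, 0.00392 and 0.0121). Gclc and Gclm, the subunits of the rate-limiting enzyme of glutathione synthesis, did not pass, with log2 fold changes of 0.08 ± 0.18 and -0.61 ± 0.26, and nor did Slc7a11, the cystine importer, with 0.33 ± 0.34. These last genes were picked out after their values were seen. Gclm passed as lower in 3 of the 15 alternatives, with 1 of the 6 single-library omissions among them. In limma-voom its log2 fold change was -0.70 (adjusted p = 0.0257). The count that rose was 1 without KO 2, KO 3, WT 6 or WT 7, and over all alternatives 1 to 7 rose and 3 to 6 fell.

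Genes around Nrf2 showed no common direction. Of 15 partners and regulators, 14 were tested, 3 rose and 2 fell, with a median of 0.07. Bach1, which represses antioxidant response elements, fell by 0.77 (adjusted p = 0.00466), and Sqstm1, an autophagy adaptor that binds Keap1, fell by 0.78 on the log2 scale (adjusted p = 0.0148). The call of Sqstm1 was lost without KO 2 or WT 6, so that 1 gene fell there, and over all alternatives 2 to 5 rose and 1 or 2 fell. Brca1 and Palb2 rose by 2.96 and 1.54 (adjusted p = 0.00242 and 0.00578). Both are DNA repair genes whose products bind the Nrf2 or Keap1 protein in human cells. Keap1, chosen after its values were seen, had 66.9 ± 3.81 CPM in KO and 65.3 ± 2.99 CPM in WT (log2 fold change 0.03 ± 0.10; adjusted p = 0.808).

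Of 26 known Nrf2 targets outside the 10 genes, 25 were tested, 5 rose and 2 fell, with a median of 0.17. Txn1, the cytosolic thioredoxin, had 746 ± 134 CPM in KO and 181 ± 5.81 CPM in WT, and rose by 2.04 on the log2 scale (adjusted p = 0.000912). Gsr, Txnrd1, Tkt and Nqo1 were the others that rose. Nqo1, a quinone reductase used widely as a readout of Nrf2, had 4.85 ± 0.621 CPM in KO and 2.74 ± 0.337 CPM in WT (log2 fold change 0.82 ± 0.25; adjusted p = 0.0444), and its call was lost without any 1 of the 6 libraries. Cat, which breaks down hydrogen peroxide, fell by 0.81 (adjusted p = 0.00819), and Cbr1, a carbonyl reductase, by 0.44 on the log2 scale (adjusted p = 0.0164). Hmox1, which degrades haem, did not pass (log2 fold change 0.43 ± 0.25). Nqo1, Tkt and Hmox1 were named after their values were seen. The number that rose was 3 without KO 1, KO 3, WT 6 or WT 7 and 2 without KO 2, and the number that fell was 1 without KO 1, KO 2, WT 6 or WT 7, 5 without WT 3 and 4 without both KO 1 and WT 3. Over all alternatives 2 to 7 rose and 1 to 6 fell.

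A further list of antioxidant genes, which shares genes with the Nrf2 targets, was also split. Of 21 peroxiredoxin, thioredoxin and superoxide dismutase genes, 20 were tested, 5 fell and 2 rose, with a median of 0.02. Prdx6, which uses glutathione to reduce lipid peroxides and is abundant in astrocytes, had 154, 210 and 189 CPM in KO 1, KO 2 and KO 3, against 389, 817 and 783 CPM in WT 3, WT 6 and WT 7. It fell by 1.85 on the log2 scale (adjusted p = 0.00565), and the call held in all 6 omissions. Txn1 and its reductase Txnrd1, by 0.69 (adjusted p = 0.0176), were those that rose. Both were already counted among the Nrf2 targets above. At an unadjusted p of 0.05, 6 genes of this list were lower and 6 higher, and 4 were called higher when library totals alone set the scale and in limma-voom. Over all alternatives 2 to 7 were lower and 1 to 4 higher. In this list 2 genes were lower without KO 1, KO 2 or WT 7 and 3 without WT 6, and 1 gene was higher without KO 1, KO 2 or WT 7. Gpx1 and Gpx4 need selenocysteine, and of 9 genes for its synthesis and insertion, all tested, Sephs2 and Eefsec rose and Sepsecs fell, with a median of -0.04. None of these 3 calls held without KO 1, KO 2, WT 6 or WT 7.

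**Figure D4:**
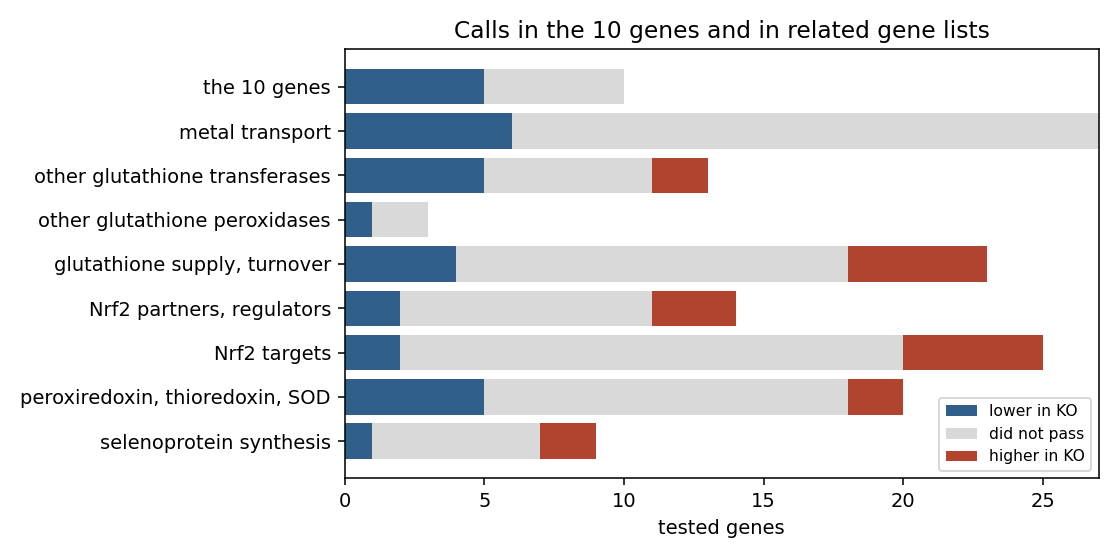
Number of tested genes in the set of 10 and in 8 related lists, split into those lower in KO, those that did not pass and those higher in KO at an adjusted p of 0.05. The 10 genes, metal transport and other glutathione peroxidases have calls on the lower side and none higher. Glutathione supply and Nrf2 targets have 5 genes each that rose, with Gsr in both. Txn1 and Txnrd1 are counted both as Nrf2 targets and in the peroxiredoxin and thioredoxin list.

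The profiles most like each of the 10 were sought among 10400 protein-coding genes with a mean of at least 10 CPM, by the root mean square (RMS) difference of centred log2 CPM over the 6 libraries. The nearest to Mt1 was Bhlhe41 (RMS 0.261) and the next Htra1 (0.291). For Mt3 they were Dtna (0.109) and Glul (0.113), which encodes the glutamine synthetase of astrocytes and is on the astrocyte list above. For Gstm1, Plcd1 was among the 2 nearest (0.192). Dtna, for example, had 62.5, 83.7 and 64.9 CPM in KO 1, KO 2 and KO 3, against 137, 250 and 319 CPM in WT 3, WT 6 and WT 7. Gstm5 was nearest to Cecr2 (0.0676) and Vgll4 (0.0839), and Gsta4 to Cd81 (0.0364), a tetraspanin of the cell surface, and Sdc4 (0.110), a syndecan. Mt2, measured on few reads, had no close match, with Thrsp at 0.402 and mt-Nd4l at 0.443. The genes that did not pass had close neighbours of small range: Gpx7 (0.0776) and Rpl35a (0.0891) for Gstp1, Zfp120 (0.0332) and Glce (0.0505) for Gpx1, and Otulin (0.0413) and Mpdu1 (0.0551) for Gpx4. Nfe2l2 was nearest to Egfr (0.0924), the receptor of a growth factor in the medium, and Myc (0.107), both of which, like Nfe2l2, were lowest in WT 3. The likeness is over 6 libraries of which 3 share a genotype, and is given as a description.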

How the data were processed

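RNA was sequenced from 3 KO and 3 WT neurosphere samples, with 3 µg of RNA for each library, per the labels' protocols. Libraries were grouped by their titles. Reads were processed on mm10 with featureCounts 1.5.0-p3, HISAT2 2.0.5 and DESeq2 1.16.1 among the tools, per the submitters' processing notes, which as used here give no settings. The deposited table holds raw read counts per gene and the authors' FPKM values, whose unit was taken from the values. Multiplied by gene length and library scale, the deposited FPKM missed the count by over 0.05 reads in 4 of 327192 values and in 0 of the 60 values of the 10 genes.

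All 6 libraries entered 1 fit without covariates. TMM factors were 0.961 to 1.04, low counts were filtered with filterByExpr, and KO was compared with WT by the two-sided quasi-likelihood F test of edgeR 4.0.16 (R 4.3.3) with Benjamini-Hochberg adjustment over all 16606 tested genes and a threshold of 0.05. The biological coefficient of variation was 26.5%. CPM uses TMM-scaled library totals; log2 CPM used a prior count of 2. Intervals are 95% and rest on the estimate and its F statistic. The fit was tried on simulated data with 1 common spread for every gene and no library that stood apart. That trial checks the code and not how the fit behaves on these libraries. Alternatives were other scalings and filters, DESeq2 1.42.0, limma 3.58.1 on weighted counts and on log2 FPKM (mean of at least 0.5; pseudocount 1 or 0.1), and each library left out. The members and the 17 pathway and marker lists were chosen with earlier results of these data known. Named genes were the 10, Ash2l, up to 4 genes per pathway list and at most 2 example markers per marker list, here for astrocytes only, by lowest p, the 2 nearest profiles per gene, and similar copies; exceptions are named in the text, and 1 nearest profile is not reported here. Promoters are from RefSeq GRCm38.p6 and exon overlaps from GENCODE M21 (mm10).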

Additional observations from a re-analysis of the deposited data

How the results depend on the processing

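No paired analysis was possible because the groups share only replicate number 3. Over all tested genes, limma-voom with quality weights called 3919 lower and 4133 higher, and leaving out 1 library gave 1151 to 3086 lower and 1060 to 3433 higher. Of the 10 genes, 1 to 7 fell with 1 library left out, and 0 rose in any of the 15 alternatives. For 59 named genes, 740 of 880 values kept direction and side of the threshold, 110 no longer passed, 13 newly passed and 17 changed sign. These 17 did not pass the test with all libraries either. With limma-voom, Nfe2l2 was at -0.045 and Keap1 at -0.017 (log2). Without both KO 1 and WT 3, Nfe2l2 was at -0.063, Gclc at -0.046, Mtf1 at -0.15 and Gstm4 at 0.075. With 1 library left out, the values ran from -0.10 to 0.35 for Gstp1, from -0.17 to 0.033 for Gpx1, from -0.13 to 0.31 for Nfe2l2, from -0.064 to 0.26 for Gclc, from -0.019 to 0.23 for Mtf1, from -0.034 to 0.34 for Gstm7 and from -0.17 to 0.36 for Gstm6. The cause was not tested. Of the 10 genes, low counts limit Mt2 most, with 4 to 28 reads in KO libraries and 13 to 75 reads in WT libraries. Its reads are also uncertain through the exon bases shared with Gm45774.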
